A study of Mus musculus with 24 samples.

Results

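Conventional dendritic cells (cDC) of the spleen take up antigen and present it to T cells, and they fall into 2 lineages. The CD8+ lineage, also called cDC1, depends on the transcription factors IRF8 and BATF3, takes up dying cells and presents their antigens on MHC class I to CD8+ T cells. The CD11b+ lineage, also called cDC2, depends on IRF4, Notch2 and lymphotoxin signalling in part and mainly presents antigen on MHC class II to CD4+ T cells. The data described here compare both lineages in unstimulated mice of 1 strain, gene by gene.

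The comparison used 6 of the 24 arrays of a mouse study: 3 of CD8+ cDC and 3 of CD11b+ cDC from the spleens of female B6 (C57BL/6) mice, aged 8 to 10 weeks, which had received phosphate-buffered saline (PBS) 12 h before. These are all arrays whose titles name 1 of these subsets, B6 and PBS. The other arrays hold the same subsets of NOD (NOD/ShiLt) mice, which develop autoimmune diabetes, and of both strains after CpG-A, a DNA ligand of TLR9. The cells were sorted as CD11c+ cells from collagenase-digested spleen, so that Cd8a, Itgam (CD11b) and Itgax (CD11c) bear on the sort itself. No source used here states if replicate arrays stand for different animals or for pools of spleens, so the p-values cover the variation among these arrays, which may be technical. Differences are given throughout as CD8+ minus CD11b+ cDC on the log2 scale of the deposited values, where 1 is a 2-fold difference, with the standard error (SE) of a limma fit. A gene is called higher or lower where its Benjamini-Hochberg adjusted p over all genes tested was under 0.05. Of 35556 probe sets on the array, 21789 had a single gene symbol. Of the 19938 genes these stand for, 11228 were above the array's median on at least 3 arrays and were tested.

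The 6 arrays separated by subset along the first principal component, which held 78.8% of their variance, against 7.5% for the second. Correlations over the genes tested were 0.985 to 0.989 within a subset and 0.916 to 0.933 between subsets. CD8+ replicate 2 correlated with the CD11b+ arrays at 0.932 to 0.933, and the other CD8+ arrays at 0.916 to 0.925. On the first component it lay nearer to the CD11b+ arrays, at -23.8 against -29.9 and -29.5. CD11b+ replicate 2 was not shifted there, at 28.4 beside 28.1 and 26.7. Replicate 2 of both subsets stood apart on the second component, at -10.5 and -13.2, with the other arrays between 2.2 and 7.6. It was also the highest array of its subset in the mean level of 11 red pulp macrophage markers with a value, 10 of them tested. This mean read 6.66, 8.14 and 7.12 in CD8+ replicates 1 to 3 and 7.82, 8.73 and 8.12 in CD11b+ replicates 1 to 3. B cell markers (8 genes) read 6.55, 7.33 and 6.44 in CD8+ and 6.36, 7.01 and 6.47 in CD11b+ cDC. Replicate 2 was also the highest of both subsets for the NK cell, T cell, plasmacytoid DC, monocyte, neutrophil and platelet lists. For some of these it was so by little, as for neutrophil markers at 4.67, 4.77 and 4.71 in CD8+ cDC. The mean of 31 immediate-early and digestion stress genes was highest in replicate 2 as well, at 8.57, 9.01 and 8.65 in CD8+ and 8.69, 9.22 and 8.68 in CD11b+ cDC. The part of RNA of other cells or of digestion in single results was not tested except by leaving these arrays out. In bulk samples fewer cells of a type and less RNA per cell cannot be told apart.

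Of the 11228 genes, 2442 (21.7%) differed between the subsets: 1074 (9.57%) were higher and 1368 (12.2%) lower in CD8+ cDC, with a median difference of -0.018 over all genes. The counts given below for each gene list are to be read beside these shares. At least 2-fold differences were called for 658 genes (5.86%), 295 higher (2.63%) and 363 lower (3.23%). Called differences of at least 8-fold were found for 16 genes in each direction. The arrays of the 2 subsets did not overlap for 4651 genes (41.4%), among them 2405 of the 2442 called. With both replicate 2 arrays left out, an alternative added after seeing the data, 712 genes were higher and 1091 lower, and 292 of the 295 and 362 of the 363 genes that differed at least 2-fold were still called. Replicate 2 was the highest of the 3 CD8+ arrays for 233 of those 363 lower genes and for 57 of the 295 higher genes. Among the 3 CD11b+ arrays, replicate 2 was the highest for 115 of the lower and 69 of the higher genes. The same shares over all genes tested were not counted.

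**Figure D1:**
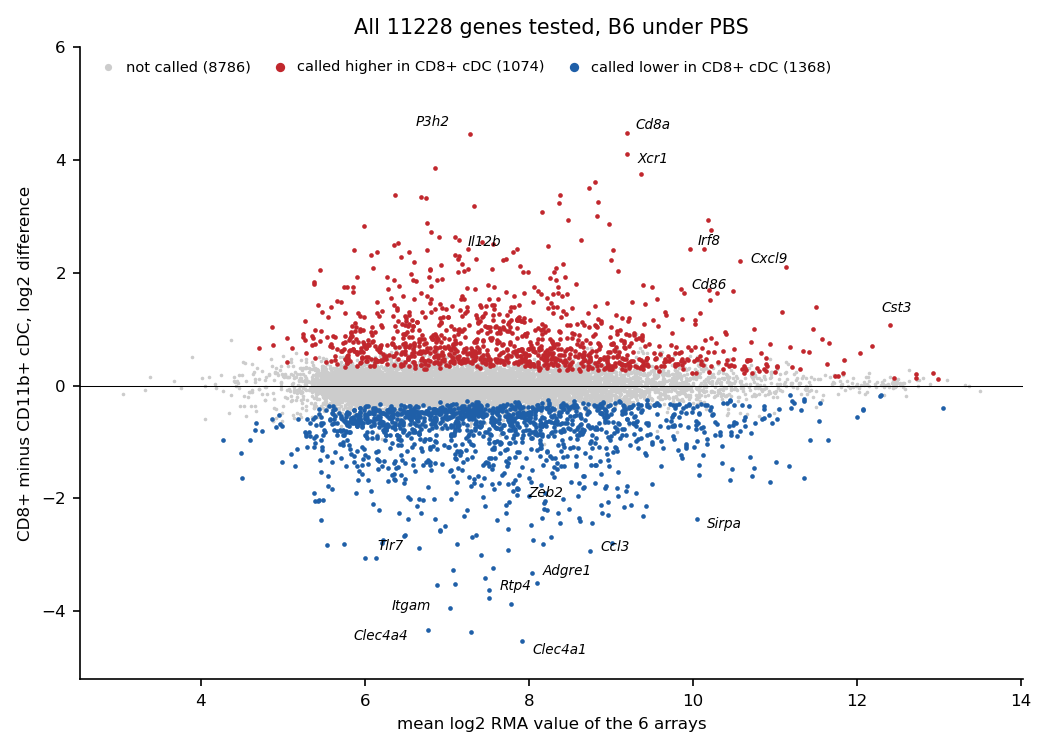
Difference between CD8+ and CD11b+ cDC (y axis, log2) against the mean level of the 6 arrays (x axis, log2) for each of the 11228 genes tested, red where called higher and blue where called lower in CD8+ cDC. Cd8a, P3h2 and Xcr1 lie above 4 and Clec4a1 and Clec4a4 below -4, and calls in both directions occur across the range of levels.

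The genes that define the CD8+ lineage were high in the CD8+ arrays, and all 15 listed markers were called higher, with a median difference of 2.94. Xcr1, the receptor for the chemokine XCL1, read 11.23, 11.20 and 11.31 in CD8+ replicates 1 to 3 and 7.31, 6.99 and 7.15 in CD11b+ cDC. The difference was 4.10 (SE 0.22, adjusted p = 2.80e-12), or 17.1-fold, and the replicates of each subset lay close together. Clec9a, which binds actin of dead cells, read 11.71, 11.54 and 11.70 against 8.68, 8.57 and 8.90, a 7.65-fold difference (adjusted p = 5.79e-12). Both genes thus showed 2 tight groups with no array in between. Cadm1, an adhesion molecule, differed 8.04-fold, Itgae (CD103, an integrin that binds E-cadherin) 10.2-fold, Cd36 (a scavenger receptor) 12.2-fold and the endosomal RNA receptor Tlr3 7.29-fold. Ly75 (DEC-205), Naaa, Gpr33, Hepacam2, Btla, Cd24a and Cd207 differed by 2.16, 2.76, 3.32, 3.85, 1.62, 1.70 and 1.84. The smallest difference among the 15 was that of Wdfy4, which CD8+ cDC need for cross-presentation, at 0.69 (SE 0.17, adjusted p = 0.0041).

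The CD11b+ lineage was marked as clearly, with 12 of 13 tested markers called lower in CD8+ cDC, 1 called higher and a median difference of -2.06 over the 13. Clec4a4 (DCIR2), the lectin that the antibody 33D1 detects, read 4.28, 4.97 and 4.57 in CD8+ and 8.86, 9.16 and 8.80 in CD11b+ cDC. It was 20.2-fold lower in CD8+ cDC (difference -4.33, SE 0.22, adjusted p = 1.17e-12), and no CD8+ array came within 3 log2 units of a CD11b+ array. Sirpa, the receptor for the "do not eat me" signal CD47, read 8.56, 9.23 and 8.78 against 11.22, 11.18 and 11.29, with CD8+ replicate 2 the nearest to the CD11b+ arrays, and differed by -2.37 (SE 0.18). Esam, an adhesion molecule of the Notch2-dependent CD11b+ cells, differed by -1.32, Cd4 by -2.47, Cd209a by -2.06, Cd300a by -1.40 and the fractalkine receptor Cx3cr1 by -1.10. The exception was the inhibitory lectin Clec12a, which was 2.04-fold higher in CD8+ cDC (difference 1.03, SE 0.21, adjusted p = 8.38e-04), at 9.27, 9.28 and 9.19 against 8.30, 8.27 and 8.08. Mgl2, the remaining marker, was not above the median on enough arrays to be tested.

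Genes common to both lineages were measured beside these markers. Of 7 pan-cDC markers, against 21.7% called over all genes tested, 1 was higher (Flt3, the receptor for the cDC growth factor FLT3 ligand, 0.61, SE 0.14) and 1 lower (Itgax, -0.67, SE 0.18). The call for Itgax was lost with both replicate 2 arrays left out. Zbtb46, a transcription factor that marks cDC, read 7.91, 7.71 and 8.06 against 7.84, 7.65 and 7.95, and its arrays overlapped (difference 0.078, adjusted p = 0.721). The MHC class II genes Cd74, H2-Aa and H2-Ab1 differed by 0.078, -0.029 and 0.069, none of them called.

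**Figure D2:**
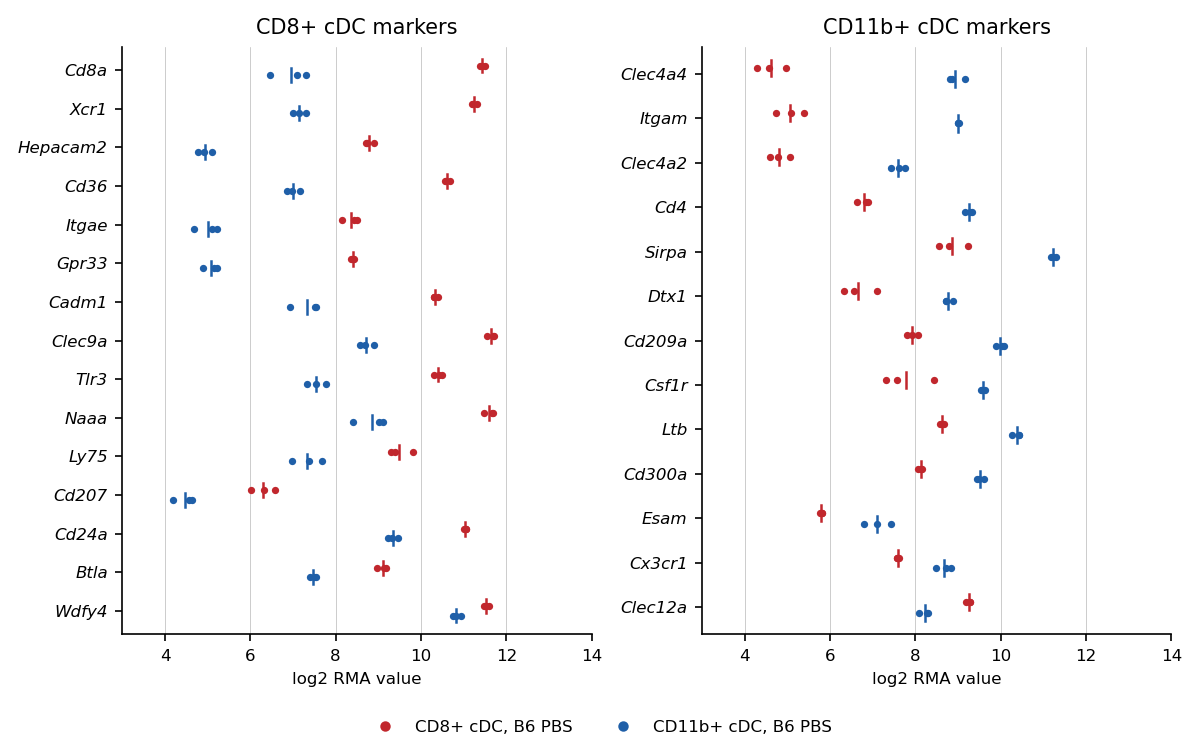
Log2 RMA value (x axis) of the markers of CD8+ cDC (left) and CD11b+ cDC (right) on each B6 array under PBS, red for CD8+ and blue for CD11b+ cDC, with a bar at each mean of 3. The groups of 3 points do not overlap for any gene shown, and Clec12a is the single CD11b+ marker with red points to the right.

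Among the genes with the largest differences were many that are not used to sort or define these cells. P3h2, a prolyl hydroxylase that modifies collagens, read 9.44, 9.62 and 9.46 in CD8+ and 4.86, 5.06 and 5.21 in CD11b+ cDC, a 22-fold difference (SE 0.15, adjusted p = 2.14e-15). For the sorted marker Cd8a the difference was 4.47 (SE 0.26). The orphan receptor gene Gpr141b differed by 3.75, the UDP-sugar receptor P2ry14 by 3.25, the endosomal GTPase Rab7b by 3.37, and the lipid phosphatase Plpp1 by 3.19. Gcsam, a signalling adaptor of germinal centre B cells, and Pdia5, a protein disulfide isomerase, differed by 3.24 and 3.07, and the transcript F630111L10Rik by 3.51. The 3 CD8+ arrays lay above the 3 CD11b+ arrays for all of these, which was a condition for naming them.

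In the other direction, the lectin gene Clec4a1 and the predicted gene Gm9733 were 23.1-fold and 20.5-fold lower in CD8+ cDC. Clec4a1 read 4.53, 6.67 and 5.74 in CD8+ against 10.30, 10.08 and 10.14 in CD11b+ cDC, with a spread of over 2 among the CD8+ arrays and replicate 2 the highest of them. Gm9733 read 5.02, 5.13 and 5.19 against 9.49, 9.61 and 9.31, with no such spread. For the sorted marker Itgam the difference was -3.94 (SE 0.24). Dscam, a cell adhesion gene known from neurons, read 5.33, 5.19 and 4.82 against 8.69, 8.57 and 8.69 and differed by -3.54 (SE 0.16). The metalloelastase gene Mmp12 differed by -3.87, Bex6 by -3.52, the transglutaminase gene Tgm2 by -3.50, the macrophage adhesion receptor gene Adgre1 by -3.32, the SAP-family adaptor gene Sh2d1b1 by -3.27, Gm5150 by -3.23 and the transporter gene Abca9 by -3.06. Adgre1 is also 1 of the 11 red pulp macrophage markers averaged above, so its CD8+ values of 5.69, 7.27 and 6.17 are part of that list's mean. Its highest CD8+ array was replicate 2, as for 233 of the 363 genes at least 2-fold lower.

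Of 44 transcription factors of the dendritic lineage, 10 were higher and 15 lower in CD8+ cDC. Irf8 read 11.17, 11.09 and 11.26 against 8.82, 8.43 and 9.0 and was 5.36-fold higher in CD8+ cDC (difference 2.42, SE 0.14, adjusted p = 6.74e-12), with more than 2 log2 units between the nearest arrays. Id2, which restrains E proteins, and Mycl, a MYC family member used by CD8+ cDC in priming, were each higher by 1.00, Zfp366 by 0.90, the Notch effector Rbpj by 0.80 and Nfil3 by 0.78. Batf3, on which the CD8+ lineage depends, read 9.40, 9.45 and 9.52 in CD8+ and 9.25, 9.09 and 9.39 in CD11b+ cDC. The groups did not overlap, but the difference of 0.21 (SE 0.10, adjusted p = 0.143) was not called. With both replicate 2 arrays left out, 6 members were called higher, and the call for Nfil3 was lost then and without CD8+ replicate 2 or 3.

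The factors lower in CD8+ cDC were led by Zeb2, which read 6.91, 7.25 and 6.70 against 8.77, 8.79 and 8.75 (difference -1.82, SE 0.18, adjusted p = 6.81e-08). Irf4 read 6.95, 7.22 and 6.85 against 8.16, 8.07 and 8.15, 2.17-fold lower (adjusted p = 1.12e-06), so that Irf8 and Irf4 differed in opposite directions. Runx3, the circadian repressor gene Bhlhe40, the octamer factor gene Pou2f2 and Prdm1 (BLIMP-1) differed by -1.15, -1.43, -1.43 and -1.01. Klf4, required by part of the CD11b+ lineage, differed by -0.95, Relb by -0.73 and Spib by -0.98. The call for Klf4 was lost without CD8+ replicate 1 or CD11b+ replicate 2. Bcl6 was not called (0.26, adjusted p = 0.131).

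In the Notch and lymphotoxin pathway, 3 of 18 genes were higher and 4 lower. The Notch target Dtx1 read 6.32, 7.10 and 6.55 against 8.89, 8.72 and 8.71 and was 4.35-fold lower in CD8+ cDC (adjusted p = 2.78e-07). Ltb, which encodes lymphotoxin beta, was 3.36-fold lower. The receptors showed another picture: Notch2 read 9.16, 9.22 and 9.22 against 9.15, 9.16 and 9.37 (difference -0.028, adjusted p = 0.918), while Notch4 read 8.42, 7.99 and 8.33 against 6.87, 6.88 and 6.94 and was 2.55-fold higher in CD8+ cDC. The lymphotoxin receptor Ltbr differed by 0.021 (adjusted p = 0.949). Of the 4 lower members, 2 were lost when CD8+ replicate 1 or 2 or CD11b+ replicate 1 or 3 was left out, the 2 that stayed in each case being Dtx1 and Ltb.

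Growth factor and cytokine receptors were more often lower than higher in CD8+ cDC, with 9 and 3 of 23 called. Csf1r, the M-CSF receptor, read 7.31, 8.44 and 7.56 against 9.55, 9.64 and 9.53, with CD8+ replicate 2 closest to the CD11b+ arrays, and differed by -1.80 (SE 0.26). Csf3r, the G-CSF receptor, read 5.32, 5.50 and 5.47 against 7.05, 7.20 and 7.13 and was 3.24-fold lower with no such array. Il6ra was lower by 2.07-fold. Il15ra, which presents IL-15 to neighbouring cells, was 2.67-fold higher in CD8+ cDC at 8.84, 8.62 and 8.30 against 7.41, 6.99 and 7.10, and its ligand gene Il15 was 3.13-fold higher at 9.02, 8.79 and 8.49 against 7.18, 7.07 and 7.12 (adjusted p = 1.23e-06).

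Receptors for microbial nucleic acids were divided between the subsets. Of 24 Toll-like receptor and adaptor genes, 4 were higher and 9 lower in CD8+ cDC. Tlr3, which senses double-stranded RNA, read 10.43, 10.31 and 10.49 in CD8+ and 7.77, 7.32 and 7.55 in CD11b+ cDC. Tlr7, which senses single-stranded RNA, read 4.70, 5.85 and 5.12 and 8.10, 8.27 and 7.92. The differences were of like size and opposite sign, 2.87 (SE 0.22) and -2.87 (SE 0.28). Tlr12, a profilin receptor, was 4.11-fold higher in CD8+ cDC, Tlr1 3.74-fold lower and the TLR4 adaptor gene Ticam2 2.93-fold lower. Tlr9, the receptor for CpG DNA, read 9.39, 9.48 and 9.38 against 9.73, 9.69 and 9.85. It was only 1.27-fold lower (difference -0.34, SE 0.11, adjusted p = 0.0288), and its call was lost with each array left out in turn except replicate 2 of either subset, with both replicate 2 arrays left out and with median centring. The count of lower members was 5 without CD8+ replicate 1, 4 without CD8+ replicate 3 and 3 without CD11b+ replicate 1, and Tlr7, Tlr1 and Ticam2 were called in each case. With both replicate 2 arrays left out, 2 members, Tlr3 and Tlr12, were higher.

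All 7 called members among 18 genes of cytosolic nucleic acid sensing were lower in CD8+ cDC. Ddx58, which encodes the RNA helicase RIG-I, read 5.66, 6.13 and 5.38 against 8.49, 8.60 and 8.48 and was 6.97-fold lower (difference -2.80, SE 0.17, adjusted p = 1.78e-11). Ifih1 (MDA5) was 2.25-fold, Zbp1 2.24-fold and Sting1 1.84-fold lower. Of 23 inflammasome and IL-1 family genes, 12 were lower and 1, Nlrp1b (0.75), higher. Nlrc4, a sensor of flagellin, read 4.94, 5.20 and 4.66 against 6.75, 6.82 and 6.97 and differed by -1.91, the peptidoglycan sensor gene Nod1 by -1.73, the IL-1 decoy receptor gene Il1r2 by -1.67 and Casp1 by -1.15. The DNA sensor gene Aim2 read 9.48, 9.22 and 9.29 against 9.46, 9.30 and 9.17 and did not pass the test (difference 0.023).

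Interferon-stimulated genes are switched on through elements of the form GAAANNGAA or close to it in their promoters. In unstimulated mice, 28 of 53 such genes were lower and 7 higher in CD8+ cDC, with a median difference of -0.47. Over all genes tested, 12.2% were lower and 9.57% higher. Ifit3, which inhibits viral RNA translation with its relatives, read 5.17, 6.40 and 5.71 in CD8+ and 8.99, 9.60 and 8.91 in CD11b+ cDC, a 10.6-fold difference (SE 0.25, adjusted p = 2.98e-10). Replicate 2 was the highest array in both subsets, yet the groups stayed more than 2 log2 units apart. Rtp4 differed by -3.63, the oligoadenylate synthetase genes Oas2 and Oasl2 by -3.00 and -2.56, Ms4a4c by -2.79, Ddx60 by -2.74, Ifit1 by -2.01 and Ifit2 by -1.41. Oas2 read 6.10, 5.88 and 5.77 against 8.89, 8.87 and 8.98, without a high replicate 2. Ifi205, an interferon-inducible DNA-binding protein gene, went the other way at 11.44, 11.25 and 11.33 in CD8+ and 9.09, 8.54 and 9.13 in CD11b+ cDC (difference 2.42, SE 0.15, adjusted p = 2.52e-11). Nampt (1.07) and Mx1 (0.61) were also higher, and Irf7, the amplifier of the interferon response, did not differ beyond its spread (8.89, 8.96 and 8.83 against 9.20, 9.22 and 8.78, adjusted p = 0.435). With both replicate 2 arrays left out, 26 members were lower and 5 higher. The call for Mx1 was lost then and without CD8+ replicate 1 or 2 or CD11b+ replicate 2 or 3. Near-identical family members such as the Oas1, Ifit and Ifi200 genes can share probe sequence, and their single values are less certain for that.

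**Figure D3:**
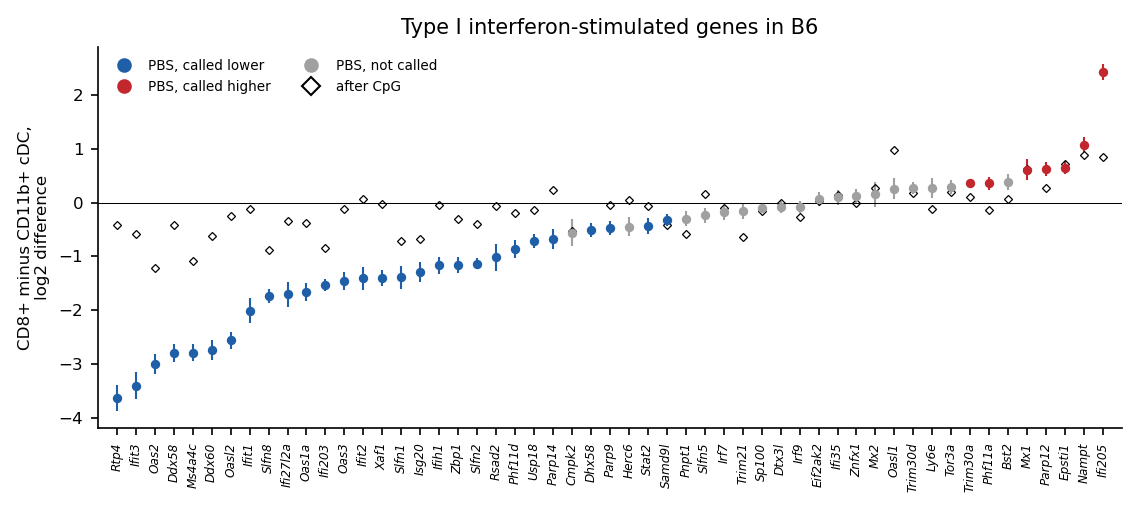
CD8+ minus CD11b+ cDC difference in B6 (y axis, log2) for each tested interferon-stimulated gene (x axis), as filled points with SE bars under PBS and open diamonds after CpG. Under PBS, 28 genes lie below 0 as called (blue) and 7 above (red), and the diamonds of Rtp4 and Ifit3, both called lower under PBS, lie nearer to 0.

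The promoters of 3 of these genes are shown because they carry the interferon response core and the genes differ in both directions. Each stretch holds the 250 bases before the RefSeq start of the gene (build GRCm38.p6), written 5′ to 3′ in the gene's direction, with every match to GAAANNGAA or its reverse complement in capitals. Ifit3 lies on the plus strand at chr19:34583279-34583528, Ddx60 on the plus strand at chr8:61927837-61928086, and Ifi205 on the minus strand at chr1:174031756-174032005.
Ifit3: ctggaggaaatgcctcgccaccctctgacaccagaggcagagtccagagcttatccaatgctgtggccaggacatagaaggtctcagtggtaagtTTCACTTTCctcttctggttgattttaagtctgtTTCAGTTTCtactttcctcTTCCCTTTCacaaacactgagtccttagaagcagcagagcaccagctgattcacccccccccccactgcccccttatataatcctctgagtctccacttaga
Ddx60: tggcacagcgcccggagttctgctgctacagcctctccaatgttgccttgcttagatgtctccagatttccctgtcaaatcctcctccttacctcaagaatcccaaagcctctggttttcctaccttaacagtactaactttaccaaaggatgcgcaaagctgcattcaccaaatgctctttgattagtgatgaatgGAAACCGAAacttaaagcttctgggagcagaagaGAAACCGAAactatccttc
Ifi205: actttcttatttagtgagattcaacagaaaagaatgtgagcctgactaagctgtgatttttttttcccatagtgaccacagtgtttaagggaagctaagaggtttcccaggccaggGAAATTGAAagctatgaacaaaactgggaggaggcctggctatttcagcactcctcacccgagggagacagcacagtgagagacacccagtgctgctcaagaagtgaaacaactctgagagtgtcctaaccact
The Ifit3 stretch holds 3 matches, starting 155, 121 and 102 bases before the start, the Ddx60 stretch 2, at 53 and 19 bases, and the Ifi205 stretch 1, at 134 bases. Ifit3 and Ddx60 were lower and Ifi205 higher in CD8+ cDC. As the genes were chosen for this, nothing follows from them about how a match goes with direction. Rtp4 and Oas2 are named only.

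Over windows from 250 bases before to 50 after the start, 8.6% of all 32851 RefSeq promoter windows held the core on either strand, and 8.7% of the 8980 genes tested that had a window. The share was 9.7% of 860 genes higher and 13.3% of 1087 genes lower in CD8+ cDC, and 20.1% of the 284 genes at least 2-fold lower against 10.2% of the 235 at least 2-fold higher. Of the interferon-stimulated list, 12 of 20 lower members with a window, 3 of 6 higher members and 5 of 15 members not called held it. The AP-1 form TGANTCA was found in 7.0% of higher and 7.3% of lower genes, in 11.1% of those at least 2-fold higher and 13.7% of those at least 2-fold lower, and in 6.2% of all genes tested with a window and 7.8% of all windows. The PU.1 form GAGGAAGT was found in 4.9% of higher and 6.5% of lower genes and in 6.0% and 7.7% of those at least 2-fold apart, against 4.0% of genes tested and 3.2% of all windows. These are counts of letters in a window, and no test was made of them. The forms do not contain one another.

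Interferon-inducible GTPases, of which 7 were tested, were called in both directions: Gbp3 was 2.45-fold lower (adjusted p = 3.89e-06), with Gbp7 and Irgm1 also lower, and Gbp5 and Iigp1 were higher by 0.72 and 0.59. Both higher calls were lost with the 2 replicate 2 arrays left out, and 1 of them when any 1 array other than CD8+ replicate 3 was left out.

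C-type lectins held some of the largest differences, with 7 of 23 tested members higher and 12 lower in CD8+ cDC. Among the lower ones were genes of the Clec4 cluster of chromosome 6, whose order in RefSeq is Clec4a1, Clec4a3, Clec4a4, Clec4b1, Clec4a2, Clec4b2 and Clec4n. The first 5 were lower in CD8+ cDC, with Clec4a3 at -3.77, Clec4b1 at -2.82 and Clec4a2 at -2.79. Clec4b2, the next gene, read 8.26, 7.78 and 8.14 in CD8+ and 4.67, 4.63 and 4.74 in CD11b+ cDC and was 10.4-fold higher in CD8+ cDC (SE 0.17, adjusted p = 1.17e-12). Clec4n, after it, was again lower (-1.65), with 4.71, 6.38 and 5.51 in the CD8+ arrays. Thus 1 gene higher in CD8+ cDC lay between neighbours that were lower. The arrays of the subsets did not overlap for it, as for 41.4% of all genes tested. Outside the cluster, Clec1a was 6.2-fold higher at 8.55, 7.82 and 8.30 against 5.60, 5.22 and 5.96. The DC-SIGN relatives were split, Cd209a being 4.18-fold lower and Cd209d 2.18-fold higher. A like split, chosen after the values were seen, was that of the orphan receptors Gpr141b (3.75) and Gpr141 (-2.18). As these genes are close relatives, cross-hybridisation of their probes was not tested.

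Receptors that signal through ITAM or ITIM motifs were mostly lower in CD8+ cDC. Of 30 inhibitory and paired receptors, 16 were lower and 3 higher, with a median of -0.52. Cd300lf, a lipid-binding receptor, read 7.03, 6.80 and 6.47 against 9.44, 9.70 and 9.57 and differed by -2.80 (SE 0.16). Cd300ld differed by -2.67, Siglece by -2.38 and the collagen receptor gene Lair1 by -2.26, with CD8+ replicate 2 the highest CD8+ array for each of these 3. Btla was 3.08-fold, Treml4 2.42-fold and Siglech 2.36-fold higher in CD8+ cDC. Of 14 Fc and complement receptor genes, 7 were lower and 1, Fcrla (1.58), higher. The shared signalling chain gene Fcer1g read 9.85, 10.25 and 9.95 against 11.50, 11.51 and 11.41 and was 2.75-fold lower, and Fcgr3 was 1.95-fold lower.

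Genes of MHC class I presentation and cross-presentation were mostly higher in CD8+ cDC, 17 of 30 tested members against 3 lower, with a median difference of 0.36. The differences were small beside those of the lineage markers. Cd1d1, which presents lipids to NKT cells, read 9.24, 8.89 and 8.70 against 7.79, 7.56 and 7.59 (difference 1.29, SE 0.16, adjusted p = 1.04e-06). Rab43, a GTPase that CD8+ cDC use in cross-presentation, was 2.06-fold higher, the recycling GTPase gene Rab11a 1.88-fold, the class I transactivator gene Nlrc5 1.74-fold, the loading chaperone gene Pdia3 1.69-fold and the peptide transporter gene Tap1 1.63-fold. B2m, the light chain, read 12.55, 12.52 and 12.58 against 12.56, 12.61 and 12.55 and its arrays overlapped. The 3 lower genes belong to or activate the NADPH oxidase: Cybb read 9.57, 9.94 and 9.47 against 10.94, 11.08 and 11.08 and was 2.6-fold lower (adjusted p = 4.92e-06), Rac2 1.74-fold and Cyba 1.29-fold. The count of higher members was 13 with both replicate 2 arrays left out.

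Of 16 MHC class II genes, 2 were higher and 5 lower. H2-Eb2, a class II beta chain gene, read 8.35, 8.35 and 7.81 against 10.01, 9.93 and 10.04 and was 3.53-fold lower in CD8+ cDC (adjusted p = 2.20e-09), while the other 4 lower genes, Rfx5, H2-Oa, Ctss and Ifi30, differed by -0.45 to -0.30. The calls of the 2 higher genes, Marchf1 (0.50) and Rfxap (0.47), were lost with both replicate 2 arrays or CD8+ replicate 3 left out, and 1 of them without CD8+ replicate 2 or CD11b+ replicate 2 or 3. Without CD8+ replicate 3 or CD11b+ replicate 1, 3 members were lower, and H2-Oa was not called when any 1 array was left out. Of 31 lysosomal genes, 5 were higher and 12 lower. Cst3, the protease inhibitor cystatin C, read 12.85, 12.90 and 13.08 against 11.92, 11.81 and 11.85 and was 2.12-fold higher with a small error (SE 0.063, adjusted p = 9.38e-12). Psap, the saposin precursor gene, was 1.62-fold higher. Lysozyme genes were lower, Lyz2 by 3.04-fold at 9.83, 9.91 and 10.02 against 11.58, 11.56 and 11.44, and so were Ctsc (-1.09) and Ctsd (-1.08), the latter not without CD8+ replicate 1. Of 17 phagocytic receptors, 4 were higher, led by Cd36, which read 10.59, 10.56 and 10.67 against 6.86, 7.17 and 6.98. Lower were 3, led by Lrp1 (-1.22), and only Lrp1 stayed without CD8+ replicate 3.

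The chemokines and receptors differed gene by gene. Of 30 genes of chemokine receptors and migration, 5 were higher and 10 lower in CD8+ cDC. Beside Xcr1 and P2ry14, the higher ones were Ccr9 (gut homing) at 7.85, 7.83 and 7.77 against 5.47, 5.98 and 5.83, Cxcr3 at 8.39, 8.29 and 8.51 against 6.61, 6.68 and 6.53, and Ccr7, which leads cells into T cell zones, at 0.85. Lower ones included Adgre4 (-2.92), Ccrl2 (-1.90) and Ccr6 (-1.87). Of 16 chemokine genes, Cxcl9, Ccl22 and Cxcl16 were higher and Ccl3, Ccl9, Ccl4 and Ccl6 lower. Cxcl9, a ligand of CXCR3, read 11.62, 11.74 and 11.67 in CD8+ and 9.61, 9.55 and 9.24 in CD11b+ cDC, 4.62-fold higher (adjusted p = 2.21e-10), and Ccl22, which attracts CCR4+ cells, was 3-fold higher. Ccl3 read 6.93, 7.99 and 6.93 against 9.80, 11.19 and 9.63, with replicate 2 highest in both subsets, and differed by -2.93 (SE 0.44). Ccl9 differed by -2.49 (SE 0.19) without that pattern. Ccl5 read 12.17, 12.18 and 11.86 against 12.26, 12.14 and 12.13 and its arrays overlapped.

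Of 15 cytokine genes, Il12b, Il15 and Csf1 were higher in CD8+ cDC and Osm and Il1b lower. Il12b, the p40 chain of IL-12 and IL-23, read 9.17, 8.96 and 8.85 against 6.75, 6.48 and 6.67 in these unstimulated mice, a 5.12-fold difference (SE 0.17, adjusted p = 2.42e-10). The calls for Osm (-0.83, adjusted p = 0.0382) and Il1b (-0.71, adjusted p = 0.0406) were near the threshold. Both were lost without CD8+ replicate 1 or 2 or CD11b+ replicate 1 or 3 and with both replicate 2 arrays left out, that for Osm also without CD8+ replicate 3 and that for Il1b without CD11b+ replicate 2. Of 35 co-stimulation and TNF superfamily genes, 7 were higher and 11 lower. Cd86, a ligand of CD28 and CTLA-4, read 10.81, 10.61 and 10.73 against 9.11, 9.07 and 8.81 and was 3.29-fold higher, and Tnfrsf4 (OX40) was 2.17-fold higher. The PD-1 ligands went the other way: Pdcd1lg2 (PD-L2) read 6.03, 6.42 and 5.73 against 7.64, 7.67 and 7.38 and Cd274 (PD-L1) 8.28, 8.43 and 7.96 against 9.34, 9.25 and 9.37, 2.84-fold and 2.14-fold lower. Tnfsf8 (CD30 ligand) was 2.5-fold lower. Only 4 members stayed higher without CD8+ replicate 2 or CD11b+ replicate 3, or without both replicate 2 arrays.

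Adhesion genes were called in both directions. Of 35 integrin and adhesion genes, 10 were higher and 11 lower. Beside Itgae, the integrin gene Itga8 was 6.63-fold higher at 8.22, 7.97 and 8.31 against 5.42, 5.29 and 5.61. The nectin-like genes were split, with Cadm1 at 3.01 and Cadm3 at -1.72.

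Enzymes and receptors of prostaglandin metabolism were called in both directions. Of 25 genes of lipid mediators and the retinoid and TGF-beta axis, 4 were higher and 11 lower. Ptgs2 (COX-2), the inducible prostaglandin synthase, read 6.40, 7.13 and 5.87 against 8.42, 9.83 and 8.79, again with replicate 2 highest in both subsets, and was 5.84-fold lower (SE 0.35, adjusted p = 5.57e-06). The prostaglandin E2 receptors were split: Ptger3 read 5.24, 5.18 and 5.43 against 7.69, 7.37 and 7.55 and was 4.76-fold lower, while Ptger2 read 5.79, 5.78 and 5.95 against 4.55, 4.76 and 4.81 and was 2.2-fold higher. Ptger2 thus lay close to the medians of these arrays, 5.81 to 5.87, in CD8+ cDC and under them in CD11b+ cDC. The thromboxane synthase gene Tbxas1 was 2.09-fold higher and the phospholipase gene Pla2g7 4.39-fold lower. Of the 4 higher members, Ptger2 and Tbxas1 stayed called with both replicate 2 arrays left out. Of 27 sialic acid and sugar chain genes, 3 were higher and 10 lower. The sialyltransferase genes St8sia6 and St8sia1 read 6.53, 6.90 and 6.61 against 9.36, 9.36 and 9.56 and 6.16, 6.17 and 6.16 against 8.06, 8.02 and 8.13, 6.7-fold and 3.74-fold lower. Lgals3 (galectin-3) was 2.14-fold higher.

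Among metabolic genes, the share called differed by list. Over all genes tested, 9.57% were higher and 12.2% lower. The shares were 27.3% and 13.6% for glycolytic and pentose phosphate genes, and 11.1% and 3.7% for cholesterol and fatty acid genes. They were 14.3% and 0.0% for ribosomal protein genes, and 3.2% and 0.0% for oxidative phosphorylation genes. Of 22 glycolytic and pentose phosphate genes, 6 were higher and 3 lower: the hexokinase gene Hk3 read 7.58, 7.34 and 7.73 against 5.37, 6.03 and 5.67 and was 3.63-fold higher, the phosphofructokinase gene Pfkp 2.49-fold higher, and the glucose transporter gene Slc2a3 3.37-fold lower at 6.63, 6.89 and 6.49 against 8.42, 8.52 and 8.32. Of 27 genes of cholesterol and fatty acid metabolism, 3 were higher, led by the lipid droplet gene Plin2 (3.35-fold), which alone stayed with both replicate 2 arrays left out. The 1 lower member was the fatty acid binding protein gene Fabp5 (4.23-fold), to which a second was added without CD8+ replicate 2. Among 31 oxidative phosphorylation genes, 1 was called (Uqcrb, 0.60), and none without CD8+ replicate 1 or 3 or CD11b+ replicate 3 or with both replicate 2 arrays left out. Without CD11b+ replicate 1, 2 were called, Uqcrb not among them, nor was it called without CD11b+ replicate 2. With the replicate number as a block or with median centring, 5 were called. Of 28 cytosolic ribosomal protein genes, 4 were called, all higher by at most 0.41, and none or 1 when any 1 array was left out.

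Genes of the cell cycle were lower in CD8+ cDC where they were called, 16 of 49 against 1 higher, with a median difference of -0.40. The cyclin D genes Ccnd2 and Ccnd1 read 7.10, 7.59 and 6.86 against 9.05, 8.82 and 8.78 and 10.23, 10.35 and 10.43 against 11.69, 11.60 and 11.77, 3.25-fold and 2.55-fold lower, E2f2 was 2.69-fold lower and Top2a 1.8-fold lower. Myb was the exception at 2.9-fold higher (adjusted p = 4.61e-06). The count of lower members was 7 without CD8+ replicate 3 or CD11b+ replicate 1 and 10 without CD11b+ replicate 3. Immediate-early genes, which tissue digestion can induce, had their highest list mean in replicate 2 of both subsets. Of 31 members, 1 was called higher (Nr4a2, 0.95) and 4 lower, led by Dusp6 (-1.25). These were 3.2% and 12.9% of the members, against 9.57% and 12.2% over all genes tested. With the replicate number as a block, 4 were higher and 10 lower. Without CD8+ replicate 3 or CD11b+ replicate 2, 2 were higher.

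Markers of other cells were measured beside these genes. NK cell markers (8 genes) averaged 5.02, 5.40 and 5.03 in CD8+ and 6.01, 6.71 and 5.70 in CD11b+ cDC, and 4 of 8 were lower in CD8+ cDC: Gzma (-2.01), Ncr1 (-1.60), Klra8 (-1.19) and Klrb1c (-0.96). Ncr1, the defining NK receptor, read 4.54, 5.12 and 4.56 and 6.13, 6.78 and 6.12, so that the 3 CD8+ arrays lay below the 3 CD11b+ arrays. The call for Klrb1c was lost without CD8+ replicate 1 or CD11b+ replicate 2 and with both replicate 2 arrays left out. Of 10 red pulp macrophage markers, 5 were lower, but for C1qa, C1qc, Axl and Spic the arrays of the subsets overlapped. Only Adgre1 was called without CD8+ replicate 1, CD8+ replicate 3 or CD11b+ replicate 2, 3 members without CD11b+ replicate 3 and 8 without CD8+ replicate 2. Of 7 plasmacytoid DC markers, 3 were higher (Ccr9, Siglech and Pacsin1), with list means of 7.64, 7.81 and 7.61 against 6.74, 7.16 and 6.97. Of 5 monocyte markers, Ace (-2.14), Fcgr4 (-1.38) and Ccr2 (-0.89) were lower and Treml4 was higher, and without CD8+ replicate 1 or 3 Ace alone was lower. Ccr2 was called lower with CD11b+ replicate 2 left out, but not with any other single array or both replicate 2 arrays left out. The T cell genes Cd3e (0.59) and Cd3g (0.96) were higher and Cd5 (-0.67) lower of 5 tested. Over the 6 T cell genes with a value, the CD8+ list means were 5.79, 6.24 and 5.96. Neither Cd3 gene was called without CD8+ replicate 2 or with both replicate 2 arrays left out. Without CD11b+ replicate 1 or 2, 1 of them was. None of the 8 B cell, 3 neutrophil, 2 platelet, 3 stromal and endothelial genes and 1 erythroid gene tested was called, but 1 stromal gene was called lower without CD8+ replicate 2. The mean of the 4 platelet genes with a value, including the untested Pf4 and Ppbp, was 6.43 in CD8+ replicate 2 against 4.65 to 4.93 on the other 5 arrays. The part of such cells in the differences above was not tested beyond these values.

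The same subsets were measured in NOD mice under PBS, on arrays that share no sample with those of B6. There, 1192 genes (10.6%) were higher and 1256 (11.2%) lower in CD8+ cDC. Of the 1074 genes higher in B6, 807 (75.1%) were also higher in NOD, which is 67.7% of those higher in NOD, and of the 1368 lower genes 906 (66.2%, or 72.1% of those in NOD) were also lower. Among genes at least 2-fold apart in B6, 278 of 295 and 331 of 363 were called in the same direction in NOD. Xcr1 differed by 4.43 in NOD, P3h2 by 4.53, Clec9a by 3.55, Irf8 by 2.78, Clec4a4 by -3.95, Dscam by -3.59, Zeb2 by -1.53, Tlr7 by -2.84 and Ifit3 by -3.36. Clec4b2 again stood against its neighbours, at 3.67 beside -3.25 for Clec4a2 and -2.80 for Clec4n, and Clec12a was again higher (1.96).

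The difference between the strains was tested as an interaction, the NOD difference minus the B6 difference, which was called for 99 genes (0.882%). It was called for 39 of the 658 genes that differed at least 2-fold in B6, a choice of genes that uses the same B6 arrays. The largest concerned Scn3a, a sodium channel gene, which read 4.49, 4.20 and 4.75 in CD8+ and 7.49, 7.53 and 7.54 in CD11b+ cDC of B6 and 4.33, 4.36 and 4.32 and 4.18, 4.18 and 4.18 in NOD. The gene thus separated the subsets in B6 (difference -3.05) and not in NOD (0.16), an interaction of 3.20 (SE 0.18, adjusted p = 9.49e-11). All its NOD values and its CD8+ values of B6 lay under the lowest array median, 5.79. Whether the probes of this or other genes match both strains alike was not tested. Il12b read 6.74, 6.39 and 6.68 and 6.46, 6.02 and 6.28 in NOD, where the difference was 0.35, an interaction of -2.00 (adjusted p = 2.78e-05). The lectin gene Cd207 (langerin) differed by 1.84 in B6 and 4.40 in NOD, and Apol7c by 1.39 and 3.62. Adamdec1 differed by -1.33 and -4.07, with replicate 2 its highest array in both B6 subsets. Ifi213 differed by -2.64 in B6 and -0.058 in NOD, and the NK gene Gzma by -2.01 and 0.83. Called in opposite directions in the 2 strains were 5 genes, Gbp3 (-1.30 and 0.71), Rnf150 (0.49 and -1.20), Ankrd50 (-0.32 and 0.35), Fam102b (0.45 and -0.38) and Melk (-0.46 and 0.56). Of them Ankrd50, Fam102b and Melk were named after their values were seen. In B6, the calls for these genes other than Gbp3 were lost with both replicate 2 arrays left out. Those for Melk and Rnf150 were also lost when any 1 array was left out, and that for Ankrd50 without CD8+ replicate 2 or 3 or CD11b+ replicate 3. With quantile normalization or median centring, Ankrd50 and Melk were not called. The interaction count fell to 63 without CD8+ B6 replicate 3 or CD11b+ NOD replicate 2 and to 56 with both B6 replicate 2 arrays left out.

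**Figure D4:**
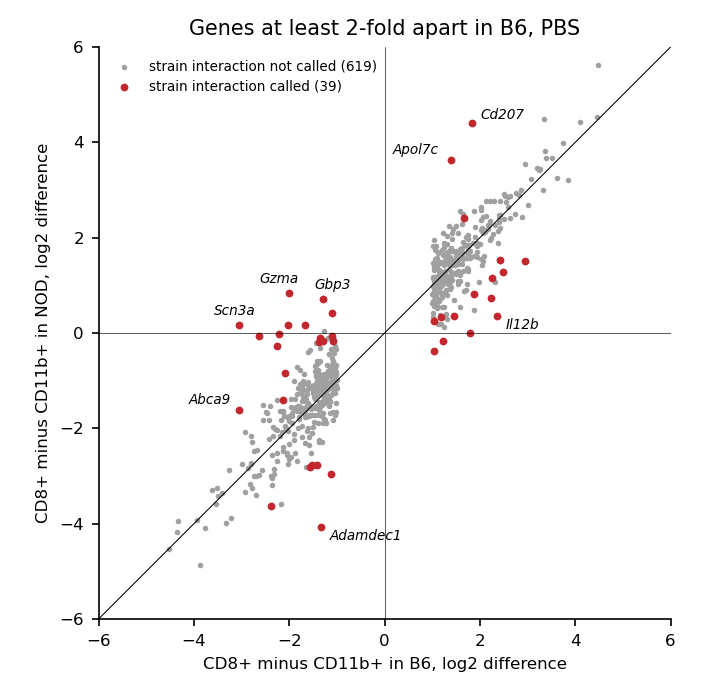
CD8+ minus CD11b+ cDC difference in NOD (y axis, log2) against that in B6 (x axis, log2) under PBS, for the 658 genes called and at least 2-fold apart in B6, with the diagonal of equal differences. Most points follow the diagonal, and the 39 genes with a called strain interaction (red) include Scn3a, near 0 in NOD, and Cd207, at 4.40 in NOD.

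At 12 h after CpG in B6 mice, 4196 genes (37.4%) differed between the subsets: 1441 (12.8%) were higher and 2755 (24.5%) lower in CD8+ cDC. The split depended on scaling, since centring each array on its median moved the median difference by 0.17 and the share of calls that were higher from 34.3% to 57.3%. Of the genes higher under PBS, 515 (48.0%, or 35.7% of those after CpG) were higher after CpG and 59 were lower. Of those lower under PBS, 893 (65.3%, or 32.4%) were lower and 29 higher. The CpG interaction, the difference after CpG minus that under PBS, was called for 1502 genes (13.4%) and for 302 of the 658 genes at least 2-fold apart under PBS, which were chosen on the same PBS arrays. It was called for 964 genes with both replicate 2 arrays of the PBS groups left out. Irf8 differed by 2.42 under PBS and 0.48 after CpG, Hepacam2 by 3.85 and 0.38, Clec4b2 by 3.38 and 0.39, Rtp4 by -3.63 and -0.42, and Ifit3 by -3.41 and -0.58. Il12b reversed, from 2.36 to -1.35 (interaction -3.71, SE 0.24, adjusted p = 1.86e-09), as did the adaptor gene Clnk, from 2.89 to -1.19. Of the 53 interferon-stimulated genes, 12 were lower and 5 higher after CpG, with a median of -0.13. Xcr1 (3.37), Clec9a (3.03), Clec4a4 (-3.59) and Zeb2 (-2.01) differed in the same direction, and their CpG interactions were not called. All 8 NK cell markers were lower in CD8+ cDC after CpG, Ncr1 by -4.77 and Gzma by -4.26, with a median over the list of -4.02, against -0.81 under PBS. The part of NK cell RNA in the comparison after CpG was not tested.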

How the data were processed

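RNA of sorted spleen cDC was amplified from 5 ng of total RNA and hybridised to 24 arrays (8 groups of 3). The deposited values are log2 signals, made by the authors with RMA and Partek (versions not given), as the submitters' processing notes list them. The labels name an array model that the probe set identifiers do not match, so the model is unsettled. Each gene was represented by its single-symbol probe set with the highest mean and tested if above the array's median on at least 3 of 24 arrays. Group means over all 24 arrays were fitted with limma 3.58.1 in R 4.3.3 (eBayes with trend, 16 residual degrees of freedom, Benjamini-Hochberg adjusted p under 0.05), and the fit was tested on simulated data. Every adjusted p in the text is from this limma fit. Members and gene lists were chosen with earlier results of these data known. Genes were named from the 15 highest and 15 lowest called genes of each comparison, for subset differences only those whose arrays do not overlap. Not all of these are named. Further sources were up to 5 called members of a list in each direction, up to 3 members not called, and 20 fixed genes. Named outside that rule, after their values were seen, were Ankrd50, Cd209a, Cd209d, Cd24a, Cd300a, Clec4n, Ddx60, Fam102b, Ifit1, Ifit2, Irf7, Klf4, Ltbr, Melk, Naaa, Nfil3, Oasl2, Prdm1, Relb, Spib, Tap1, Wdfy4 and Zbtb46. Between the B6 PBS subsets, arrays with the same number deviated from their group means together, with correlations of 0.135, 0.277 and 0.140 over genes. This pairing comes from the replicate numbers in the labels, and the main fit did not use it. Promoter windows are RefSeq's (GRCm38.p6). Alternatives were other filters, scalings, fits and left-out arrays.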

Additional observations from a re-analysis of the deposited data

Results flagged for a closer look

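For 19 of 215 genes named above the subset difference itself differed between strains, by the limma interaction test with Benjamini-Hochberg adjustment. The 215 leave out Itgam, Mycl and Ccl4. The values give the CD8+ minus CD11b+ difference in NOD minus that in B6 under PBS, on the log2 scale. Among genes lower in CD8+ cDC of B6, the value was positive for Scn3a (3.20), Gzma (2.84), Ifi213 (2.58), Gbp3 (2.00), Abca9 (1.44), Fabp5 (1.25), Cybb (1.18), Spib (1.13), Melk (1.02) and Ankrd50 (0.67), and negative for Adamdec1 (-2.74). Among genes higher in CD8+ cDC of B6, it was positive for Apol7c (2.23) and Cd207 (2.56) and negative for Il12b (-2.00), Rnf150 (-1.69), Nlrp1b (-0.92), Ifi205 (-0.89) and Fam102b (-0.83). Ccl5, not called in B6, had a value of 0.51.

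For 99 of the same 215 genes the difference after CpG, minus that under PBS in B6, passed the same kind of test. Neither interaction was followed gene by gene through the alternatives. Over all genes tested, the CpG interaction calls fell from 1502 to 964 with both PBS replicate 2 arrays left out, so small values are less certain. Among the markers of CD8+ cDC the values were negative for Hepacam2 (-3.47), Itgae (-2.41), Tlr3 (-1.88), Cd207 (-1.55), Btla (-1.40), Cd36 (-1.33), Cd8a (-1.33) and Cadm1 (-1.14). Among the markers of CD11b+ cDC, Cd209a (1.71), Clec12a (1.51) and Clec4a2 (1.46) had positive values, of which Clec12a alone was higher in CD8+ cDC under PBS. Itgam, outside the 99, also had a called positive value (1.84). Genes with large PBS differences outside the lists fell into negative values for Clnk (-4.07), F630111L10Rik (-2.11), P3h2 (-1.97), Pdia5 (-1.59) and Rab7b (-1.54), all higher in CD8+ cDC under PBS, and positive ones for Abca9 (2.99), Mmp12 (2.78), Ifi213 (1.89), Gm5150 (1.57), Gm9733 (1.30) and Tgm2 (1.26), all lower.

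Transcription factors included Irf8 (-1.94), Bcl6 (-0.76), Zfp366 (-0.74) and Id2 (-0.53) with negative and Irf4 (1.35), Spib (1.27) and Relb (0.68) with positive values. Interferon-stimulated genes were positive for Rtp4 (3.20), Ifit3 (2.83), Oasl2 (2.31), Ddx60 (2.12), Ifit1 (1.88), Oas2 (1.79), Ms4a4c (1.71) and Ifit2 (1.47) and negative for Ifi205 (-1.57). Positive values were also found for Ddx58 (2.38), Ifih1 (1.13), Zbp1 (0.87) and Irgm1 (0.63). Toll-like receptors and inflammasome genes gave Tlr12 (-1.70), Tlr1 (-0.93), Il1b (-1.83), Nlrp1b (-1.22) and Aim2 (-1.02), and a positive value for Nlrc4 (0.90).

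Lectins were split between Clec4b2 (-2.99), Clec1a (-1.25) and Cd209d (-1.04) and Clec4a1 (1.82) and Clec4b1 (1.35). Paired and Fc receptors gave Siglece (1.61), Cd300ld (1.24), Siglech (-0.98), Treml4 (-1.44) and Fcrla (-1.44). Co-stimulation genes gave Pdcd1lg2 (1.85), Cd274 (1.31), Tnfrsf4 (0.95) and Cd86 (-1.32). Cytokine and chemokine genes gave Il12b (-3.71), Cxcl9 (-1.80), Cxcl16 (-1.07), Il15 (-1.05), Csf1 (-0.81) and Ccl9 (1.38). Chemokine receptor and migration genes gave P2ry14 (-2.74), Cxcr3 (-1.67), Ccr2 (-1.34), Ccr9 (-1.27), Adgre1 (1.98) and Ccrl2 (1.63). Notch receptors gave Notch4 (-0.97) and Notch2 (-0.66).

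Antigen presentation genes gave Cd1d1 (-1.83), Rab43 (-0.94), H2-Oa (-0.76) and Nlrc5 (-0.60), and lysosomal and uptake genes Lyz2 (-1.39), Psap (-0.42), Ctsc (1.19) and Lrp1 (0.99). Lipid mediator genes gave Ptger3 (1.75), Tbxas1 (-1.16) and Ptger2 (-0.90). Metabolic genes gave Hk3 (-1.61), Pfkp (-0.92), Slc2a3 (0.77) and Fabp5 (1.07), and Itga8 (-2.08) and E2f2 (0.76) completed the adhesion and cell cycle genes. Markers of other cells gave Klrb1c (-3.54), Ncr1 (-3.16), Klra8 (-2.89) and Gzma (-2.25) for NK cells, Ace (1.11) for a monocyte gene and Spic (1.51) for a red pulp macrophage gene.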

How the results depend on the processing

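Of 203 genes named and called between the subsets in B6 under PBS, 174 were called under each alternative run. The other 29 lost the call under at least 1, mostly when a single array was left out, and the cause was not tested. Itgam, Mycl and Ccl4, also named above, were not among the genes counted here. Of 12 named genes not called, Bcl6 alone passed under some alternative. None of the 203 genes changed direction. The count of 2442 genes was between 1941 and 2096 when 1 array was left out. The main fit did not treat same-numbered arrays of the subsets as pairs. With the replicate number as a block the count was 2710, and no named gene counted here changed its call. The counts of the oxidative phosphorylation and immediate-early lists rose. With both replicate 2 arrays of B6 under PBS left out, 712 genes were higher. The strain interaction, called for 99 genes (50 positive, 49 negative), was called for 51 (32 and 19) with the filter at 12 arrays, where fewer genes are tested, for 181 (91 and 90) when fitted on the groups compared alone, for 56 (27 and 29) without both replicate 2 arrays, and for 63 to 91 (28 to 49 and 34 to 42) without single arrays. After CpG, median centring gave 2467 higher genes in place of 1441. The CpG interaction was called for 964 genes without both replicate 2 arrays, 449 of them negative, against 1502 and 846. The negative calls numbered 1305 when fitted on the groups compared alone and 539 (without CD8+ CpG replicate 1) to 1119 without single arrays. Restricting the motif counts to genes at least 2-fold apart gave 20.1% for the interferon response core in lower genes, and 11.1% and 13.7% for the AP-1 form in higher and lower genes. With 3 arrays a group, the number of arrays limits the precision.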
